A study of Homo sapiens with 7 samples.

Results

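The BCL2 family decides whether a cell commits to mitochondrial apoptosis. Its genes PMAIP1, BBC3, BCL2, BCL2L1, BCL2L11, MCL1, BAX, BAK1, BID and BIK were taken from the gene table by symbol, 10 of 57773 rows, with 1 row each. RNA of MDA-MB-231, an established human cell line from triple-negative breast cancer, was sequenced in a series on APE1, the base excision repair endonuclease encoded by APEX1, and its binding to G-quadruplexes. The KD group has 2 libraries, with 14677006 and 15502425 counts, and the parent group has 3, with 14601078 to 18049386 counts. KD is not spelled out in the labels, and every sample carries the same treatment text, on cells knocked out for APE1 that re-express wild-type or mutant APE1 from a lentiviral vector under doxycycline. Which library, if any, received the vector, the drug or the blasticidin selection is not stated, nor is whether KD is 1 clone. Separate cultures are not stated either, so the p-values describe the spread between these libraries, and that spread may be technical. A ChIP input and an APE1 ChIP sample, with 1 library each, were not analysed here.

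Proteins of this family share BCL2 homology (BH) domains and fall into 3 classes. The pro-survival members, here BCL2, BCL2L1 (BCL-XL) and MCL1, hold the effectors BAX and BAK1 in check. Freed effectors assemble in the outer mitochondrial membrane and let cytochrome c out, which starts the caspases. BH3-only members, here PMAIP1 (NOXA), BBC3 (PUMA), BCL2L11 (BIM), BID and BIK, report stress by binding the pro-survival proteins, and some also activate the effectors directly. NOXA binds MCL1 with preference. Much of this control acts on the proteins, which RNA counts do not measure.

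APEX1 had 640 and 753 counts in the KD libraries, against 1936, 1936 and 2413 counts in the parent libraries, a KD level of 35.2% of parent (log2 fold change -1.51 ± 0.0727, SE, edgeR quasi-likelihood adjusted p = 5.9e-05). Both KD libraries lay below every parent library. Of the markers for the line, VIM, CD44, ZEB1 and AXL were detected in all libraries, while SPARC, a matrix protein of mesenchymal cells, was near the lower end (4.83 CPM in KD and 0.675 CPM in parent, CPM being counts relative to TMM-scaled library size). ESR1, FOXA1 and PTPRC had 0 counts throughout and PGR had 2 in 1 parent library. Luminal ERBB2 (161 CPM in KD and 133 CPM in parent) and GATA3 (36.2 CPM in KD and 34.1 CPM in parent) were present. The epithelial marker EPCAM was at 9.71 CPM in KD and 12.3 CPM in parent. COL1A1, a marker of fibroblasts, was also present, at 24.7 CPM in KD and 20.7 CPM in parent. Neither EPCAM nor COL1A1 passed the edgeR test (adjusted p = 0.121 and 0.301). Of the 5 mesenchymal markers, CD44, ZEB1 and AXL fell and SPARC rose, and of the 7 luminal or epithelial ones CDH1 (7.70 CPM in KD and 3.51 CPM in parent) and ERBB2 rose. The part of such differences in the results on the family was not tested. Across the 16198 tested genes, 21.5% passed an adjusted p of 0.05, and 167 of those that fell had 0 counts in both KD libraries. In bulk RNA, fewer cells with a transcript and less transcript per cell cannot be told apart.

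The start regions of the family members that changed are shown because the series concerns G-quadruplexes, which form in DNA with 4 neighbouring runs of G. RefSeq windows of 300 bases, 250 before and 50 after each start (GRCh38.p14), were found for 8 of the 10 genes, MCL1 and BIK having no entry. The pattern searched was 4 runs of GGG or longer with 1 to 7 bases (N) between them, on either strand. It occurred in 25% of all 35116 windows in the table and in 7 of the 13 windows of these genes, in 4 of the 8 genes. Of the 7 windows, 4 are alternative windows of BID. Its windows 1 and 4 overlap and share a match of 44 bases. Its windows 2 and 5 lie apart from those, overlap each other and share matches of 43 and 26 bases. Window 5 has a further match of 21 bases. Because of these overlaps, the 7 windows are not separate stretches of DNA. The other 3 belong to PMAIP1, BCL2L11 and BAK1. Capitals mark the pattern. The windows are chr18:59899746-59900045 on the plus strand for PMAIP1, chr2:111120664-111120963 on the plus strand for BCL2L11 and chr6:33580227-33580526 on the minus strand for BAK1. The windows for BCL2, chr18:63319720-63320019, and for BCL2L1, chr20:31723914-31724213, both on the minus strand, have no match. BCL2L1 has a second window, also without one.
PMAIP1: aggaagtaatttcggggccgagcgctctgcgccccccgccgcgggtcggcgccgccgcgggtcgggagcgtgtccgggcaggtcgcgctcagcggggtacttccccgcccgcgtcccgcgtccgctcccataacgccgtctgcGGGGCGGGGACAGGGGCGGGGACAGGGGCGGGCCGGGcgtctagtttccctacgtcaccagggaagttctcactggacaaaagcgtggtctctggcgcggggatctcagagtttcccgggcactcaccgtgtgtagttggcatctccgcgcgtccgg
BCL2L11: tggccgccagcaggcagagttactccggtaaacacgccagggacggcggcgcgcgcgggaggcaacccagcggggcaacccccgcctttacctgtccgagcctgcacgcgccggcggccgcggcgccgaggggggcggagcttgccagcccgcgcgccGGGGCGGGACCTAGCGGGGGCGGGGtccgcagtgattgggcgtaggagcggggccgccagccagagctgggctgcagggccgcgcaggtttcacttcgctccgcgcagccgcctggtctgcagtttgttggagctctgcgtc
BAK1: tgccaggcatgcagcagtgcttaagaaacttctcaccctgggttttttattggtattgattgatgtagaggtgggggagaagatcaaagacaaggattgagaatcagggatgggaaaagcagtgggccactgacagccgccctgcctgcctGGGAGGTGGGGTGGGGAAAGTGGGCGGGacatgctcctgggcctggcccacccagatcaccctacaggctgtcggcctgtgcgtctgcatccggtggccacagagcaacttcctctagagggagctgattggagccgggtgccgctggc
BCL2: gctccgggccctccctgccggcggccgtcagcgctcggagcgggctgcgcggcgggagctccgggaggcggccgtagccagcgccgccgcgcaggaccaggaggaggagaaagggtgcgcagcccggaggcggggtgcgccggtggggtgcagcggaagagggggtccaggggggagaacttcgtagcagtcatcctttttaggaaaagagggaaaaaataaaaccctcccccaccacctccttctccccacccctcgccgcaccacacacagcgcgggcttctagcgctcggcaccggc
BCL2L1: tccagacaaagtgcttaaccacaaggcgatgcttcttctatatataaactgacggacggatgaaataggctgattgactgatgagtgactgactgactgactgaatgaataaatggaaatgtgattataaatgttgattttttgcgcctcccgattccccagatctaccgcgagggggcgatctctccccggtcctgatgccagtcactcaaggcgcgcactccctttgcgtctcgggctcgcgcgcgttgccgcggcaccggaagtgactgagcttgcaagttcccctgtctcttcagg

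In PMAIP1 the match ran from base -107 to -71 relative to the start, in BCL2L11 from -92 to -68 and in BAK1 from -99 to -72, each on the strand shown. Of these genes with a match, PMAIP1 fell in KD while BCL2L11 and BAK1 rose, and BCL2 and BCL2L1, without one in these windows, fell. BID carried matches in 4 of its 5 partly overlapping windows and did not pass the test. Whether the pattern bears on these changes was not tested. A match describes letters and does not show a folded structure or APE1 at the site. Other motifs were searched on both strands. The AP-1 motif TGANTCA occurred once, in the BBC3 window, and in 7.71% of all windows. The E-box CACGTG occurred 4 times in the BAX window, and in 7.26% of all windows. It was also found in the window of BBC3 and, at the same site in 2 of 5 windows, in BID. The cyclic AMP element TGACGTCA occurred in no member window and in 1.85% of all windows. BAX and BBC3 did not pass the test between the groups.

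All 10 genes passed the filter on low counts, and 6 of them, 60%, passed the test, beside 21.5% of all tested genes. The family and the lists below were chosen with earlier results of these data known, so such shares are only a description. PMAIP1, BIK, BCL2 and BCL2L1 fell, and BCL2L11 and BAK1 rose. Over all tested genes 12.4% fell and 9.15% rose. Taking the 10 genes together, their log2 fold changes had a median of -0.06, beside 0.00 over all tested genes. By class, 2 of the 5 BH3-only genes fell and 1 rose, 2 of the 3 pro-survival genes fell, and 1 of the 2 effector genes rose. The libraries of the groups did not overlap for 8 of the 10 genes, against 51.4% of all tested genes. The plot of levels by library shows these values.

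**Figure D1:**
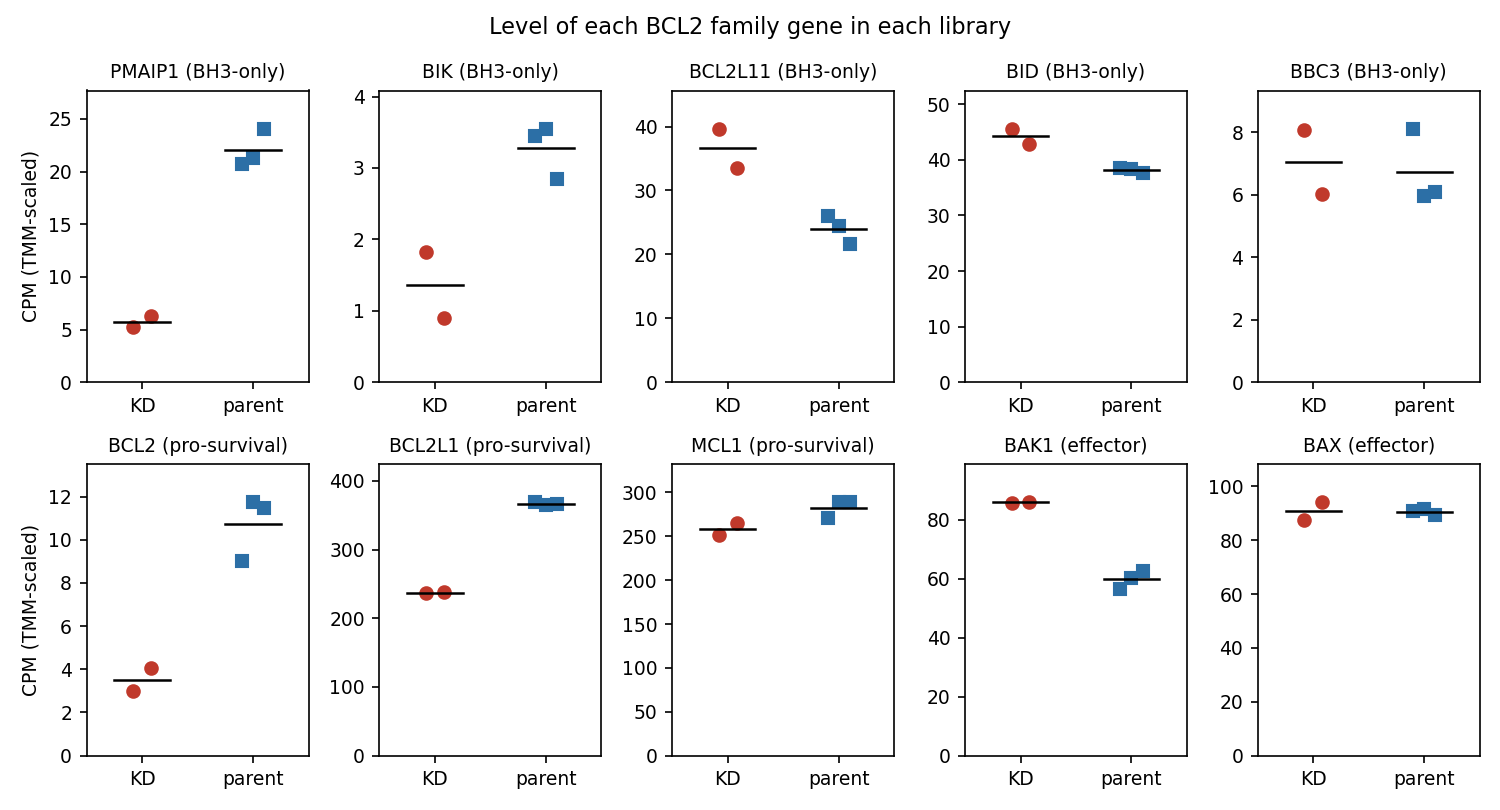
Level of each of the 10 genes in each library, in CPM on TMM-scaled library sizes, with KD (2 libraries, circles) left of parent (3 libraries, squares), the bar at the group mean and each axis starting at 0. Only for BBC3 and BAX do the KD and parent points overlap. PMAIP1 has 5.21 and 6.28 CPM in KD against 20.8 to 24.1 CPM in parent.

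Among the BH3-only genes, PMAIP1, which is induced by p53 and by other stress-activated factors, changed most. It had 5.21 and 6.28 CPM in KD replicates 1 and 2, against 20.8, 21.2 and 24.1 CPM in parent replicates 1, 2 and 3. Every parent library was above both KD libraries, and the counts behind the values were 77 and 98 in KD against 325, 311 and 431 in parent. The level averaged 5.75 ± 0.755 CPM in KD (SD, n = 2) and 22 ± 1.80 CPM in parent (n = 3, as for every level with its SD here), a 3.83-fold fall (log2 -1.94 ± 0.129, SE, edgeR adjusted p = 0.00019). By size of change it ranked 504 among the 16198 tested genes. In the authors' deposited table its log2 fold change was -1.95, with an adjusted p of 2.59e-18. That table does not state its direction, but DESeq2 run here as KD over parent gave the same log2 fold changes for PMAIP1 (-1.95) and APEX1 (-1.52).

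BIK, a BH3-only protein of the endoplasmic reticulum, was the least abundant of the 10 by counts. It had 1.83 and 0.897 CPM in the KD libraries, against 3.45, 3.55 and 2.85 CPM in the parent libraries. The groups did not overlap, but the KD values differed from each other by more than counting error (chi-square 4.87 for 1 degree of freedom), resting on 27 and 14 counts against 54, 52 and 51. The fall was 2.41-fold (log2 -1.27 ± 0.319, edgeR adjusted p = 0.0320). The threshold was missed when KD replicate 2 was left out (adjusted p = 0.114), or parent replicate 1 (0.0602) or 2 (0.0942), without the low-count filter (0.0510) and in DESeq2 (0.0691), all alternatives spanning 0.0191 to 0.114. Its log2 fold change was -0.84 without KD replicate 2 and -1.86 without KD replicate 1. The authors' deposited table gives BIK an adjusted p of 0.0710. Its log2 fold change and standard error there are those of DESeq2 here, so this is not separate evidence.

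BCL2L11, whose product BIM binds all pro-survival members and is held down by ERK signalling, rose. It had 39.7 and 33.6 CPM in KD, against 26, 24.4 and 21.6 CPM in parent. Both KD libraries exceeded all parent libraries, and KD replicate 1 was the higher of the pair. BCL2L11 averaged 36.6 ± 4.31 CPM in KD and 24.0 ± 2.21 CPM in parent, a 1.53-fold rise (log2 0.61 ± 0.104, edgeR adjusted p = 0.00761). Without KD replicate 1 the log2 fold change was 0.48 and the edgeR call was lost (adjusted p = 0.0574, all alternatives spanning 0.0015 to 0.0574). The count of members that rose was then 1.

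BID, which caspase 8 cleaves to link death receptors to mitochondria, had 45.6 and 42.9 CPM in KD, against 38.6, 38.4 and 37.7 CPM in parent. The groups did not overlap, and the 95% interval of the log2 fold change was 0.07 to 0.36, around 0.21. Its adjusted p was 0.0507 (edgeR), and it passed when library totals replaced TMM scaling (0.0396, all alternatives spanning 0.0396 to 0.277). BBC3, a p53 target that binds all pro-survival members, had 8.06 and 6.02 CPM in KD, against 8.11, 5.94 and 6.09 CPM in parent. The groups overlapped, with KD replicate 1 and parent replicate 1 both near 8 CPM. Its log2 fold change was 0.07 with a 95% interval of -0.40 to 0.54 (edgeR adjusted p = 0.848), so a change of up to 1.45-fold upward or to 0.755 of parent lies within the interval.

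Of the pro-survival genes, BCL2, the founding member of the family, was lower by the larger factor. It had 2.98 and 4.04 CPM in KD, against 9.01, 11.7 and 11.5 CPM in parent, from 44 and 63 counts against 141, 172 and 205. The groups were far apart, with the highest KD library below the lowest parent library by over 2-fold. BCL2 averaged 3.51 ± 0.748 CPM in KD and 10.7 ± 1.51 CPM in parent, a 3.05-fold fall (log2 -1.61 ± 0.194, edgeR adjusted p = 0.00191).

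BCL2L1 encodes BCL-XL and, by alternative splicing, the shorter BCL-XS that promotes death, and the gene counts do not separate them. It had 236 and 238 CPM in KD, against 369, 365 and 366 CPM in parent. The libraries within each group lay close together, with coefficients of variation of 0.535% in KD and 0.603% in parent. BCL2L1 averaged 237 ± 1.27 CPM in KD and 367 ± 2.21 CPM in parent, a 1.55-fold fall (log2 -0.63 ± 0.0426, edgeR adjusted p = 0.000205). With 3488 to 6545 counts per library, it is more deeply counted than BCL2, and the standard error of its log2 fold change is smaller (0.0426 beside 0.194).

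MCL1, a pro-survival protein with a short half-life, had 251 and 265 CPM in KD, against 270.3, 289 and 289 CPM in parent. Both KD libraries were below all parent libraries, by a small margin. Its log2 fold change was -0.13 with a 95% interval of -0.26 to -0.01. It did not pass after adjustment over all genes (edgeR adjusted p = 0.125), nor in any of the 11 alternatives, where the adjusted p was 0.0638 to 0.470.

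**Figure D2:**
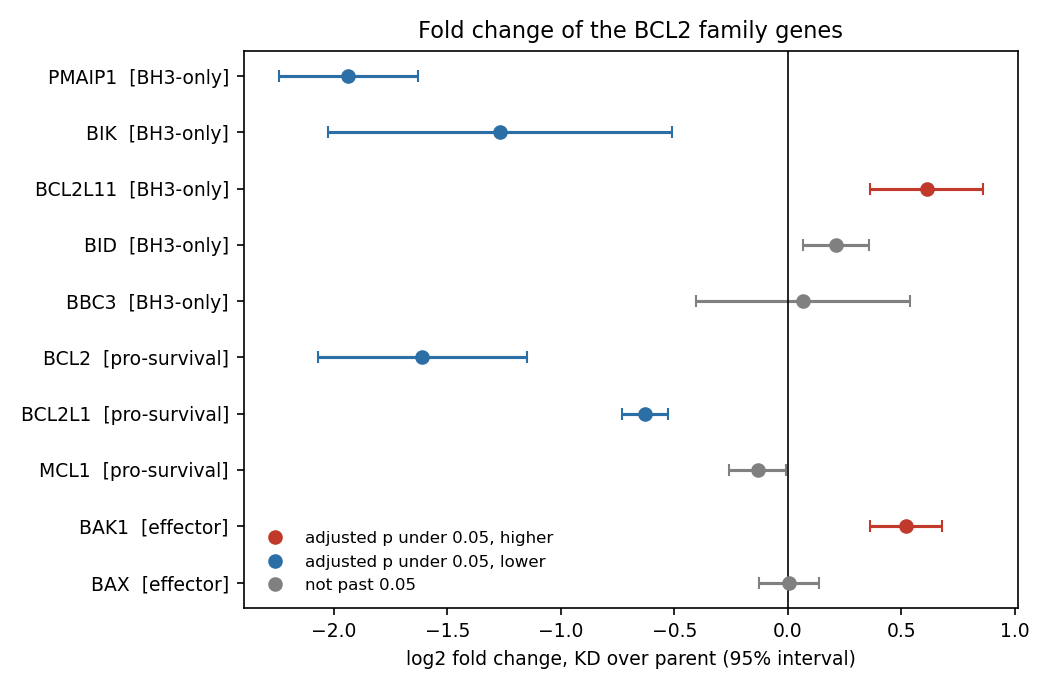
Log2 fold change of each gene, KD over parent, with its 95% interval from the edgeR quasi-likelihood fit, ordered by class and coloured by the call at an adjusted p of 0.05. PMAIP1 (-1.94), BCL2 (-1.61), BIK (-1.27) and BCL2L1 (-0.63) lie to the left of 0, and BCL2L11 (0.61) and BAK1 (0.52) to the right.

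Of the effectors, BAK1 rose and BAX did not pass. BAK1, resident in the outer mitochondrial membrane, had 85.8 and 86.0 CPM in KD, against 56.4, 60.3 and 62.7 CPM in parent. Both KD libraries stood above all parent libraries, with a mean of 85.9 ± 0.156 CPM in KD and 59.8 ± 3.18 CPM in parent. This was a 1.44-fold rise (log2 0.52 ± 0.0667, edgeR adjusted p = 0.0024). The pseudogene BAK1P1 has its own row, with 526 counts summed over the 2 KD libraries and 607 over the 3 parent libraries. These sums are not scaled to depth or to the number of libraries. Reads may be split between the copies, so the BAK1 count is uncertain. With that row added to BAK1, the log2 fold change was 0.51 (adjusted p = 0.00252).

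BAX, which moves from the cytosol to mitochondria on activation, had 87.6 and 94.2 CPM in KD, against 90.7, 91.7 and 89.4 CPM in parent. The KD libraries lay on either side of the parent range. BAX averaged 90.9 ± 4.66 CPM in KD and 90.6 ± 1.13 CPM in parent, and the 95% interval of the log2 fold change was -0.13 to 0.14 (edgeR adjusted p = 0.960). Changes beyond 1.1-fold upward or below 0.915 of parent lie outside that interval.

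Ratios between members within a library do not depend on how the libraries are scaled, and gene lengths drop out when libraries are compared. With 2 against 3 libraries an exact one-sided permutation test cannot go below p = 0.1, so the ratios are given as values. The log2 ratio of PMAIP1 to MCL1, the BH3-only protein and its preferred partner, was -5.59 and -5.40 in KD, against -3.70, -3.76 and -3.58 in parent. KD was lower in both libraries, by 3.50-fold on average. The log2 ratio of BCL2L11 to MCL1 was -2.66 and -2.98 in KD, against -3.38, -3.57 and -3.74 in parent, higher in KD by 1.67-fold. BIM and NOXA transcripts therefore stood on opposite sides of parent relative to MCL1.

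For the effectors, the log2 ratio of BAX to BCL2 was 4.88 and 4.54 in KD, against 3.33, 2.96 and 2.96 in parent, higher in KD by 3.08-fold. BAX to BCL2L1 was -1.43 and -1.34 in KD, against -2.02, -1.99 and -2.03 in parent, higher in KD by 1.55-fold. The log2 fold change of BAX itself was 0.01, and those of BCL2 and BCL2L1 were -1.61 and -0.63. BAK1 to MCL1 was -1.55 and -1.62 in KD, against -2.26, -2.26 and -2.20 in parent, higher in KD by 1.58-fold. For none of the 5 ratios did the libraries of the groups overlap. Each ratio holds a gene that passed the test by itself, so this is not a separate result.

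**Figure D3:**
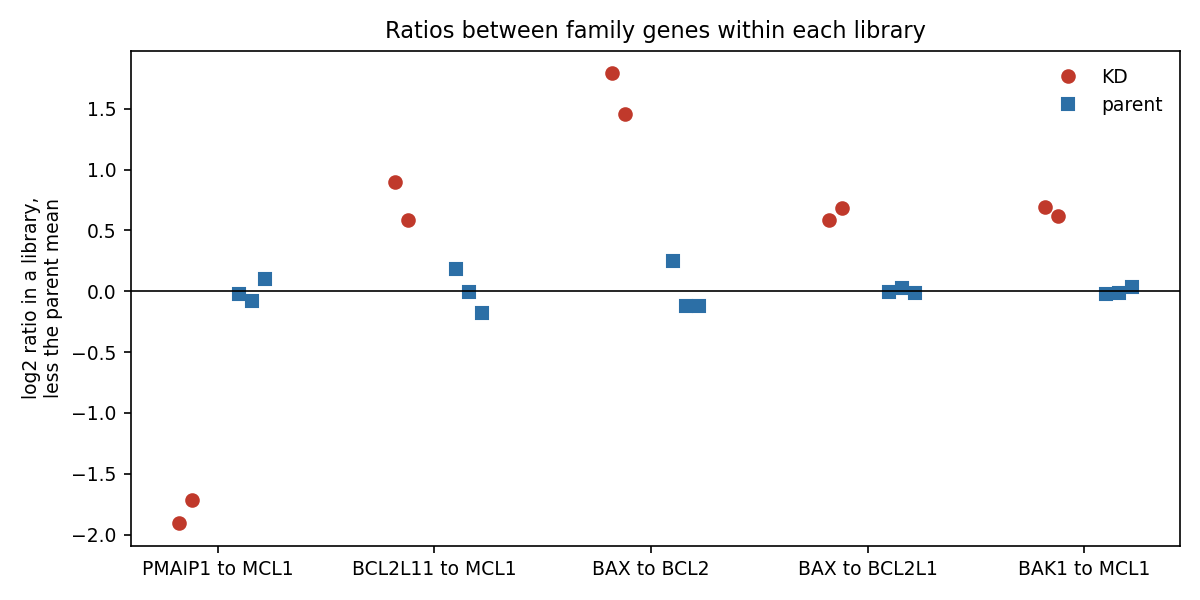
Log2 ratio of CPM between 2 family genes in each library, less the mean over the parent libraries, with KD (2 circles) left of parent (3 squares) for each ratio. PMAIP1 to MCL1 lies below 0 in both KD libraries, and the other 4 ratios lie above 0 in both.

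Of 13 further BCL2 family genes, 8 passed the filter on low counts, of which 1 rose and 1 fell, 25% beside 21.5% of all tested genes. BMF, a BH3-only protein tied to the cytoskeleton, had 386 and 303 counts in KD, against 241, 183 and 239 in parent. It averaged 22.8 ± 4.75 CPM in KD and 13.8 ± 1.49 CPM in parent, a 1.65-fold rise (log2 0.73 ± 0.150, edgeR adjusted p = 0.0156). That call was lost without KD replicate 1 (adjusted p = 0.0916) or parent replicate 2 (0.0621), all alternatives spanning 0.0041 to 0.0916. BNIP3, a hypoxia-induced mitophagy receptor, averaged 48.7 ± 5.80 CPM in KD and 86.3 ± 18 CPM in parent, a 1.77-fold fall (log2 -0.82 ± 0.174, edgeR adjusted p = 0.0171). The call failed without KD replicate 1 (adjusted p = 0.0516) or KD replicate 2 (0.10), all alternatives spanning 2.71e-05 to 0.10. With the row of its pseudogene BNIP3P1 added, the log2 fold change was -0.80.

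BNIP3L, the close relative of BNIP3, averaged 77.5 ± 14.0 CPM in KD against 103 ± 16.8 CPM in parent (edgeR adjusted p = 0.113). It passed only without parent replicate 3 (adjusted p = 0.0424) and with the replicate number as a block (0.00259), all alternatives spanning 0.00259 to 0.432. The other tested members lay between log2 fold changes of -0.08 and 0.17 and did not pass. They were the pro-survival BCL2L2 (BCL-w), the effector-like BOK, the BH3-only BAD, and BCL2L12 and BCL2L13. BCL2L2 overlaps the read-through row BCL2L2-PABPN1, so its count is uncertain. BCL2L10 and BCL2L14 had 0 counts in all libraries, which allows up to 0.0988 CPM in KD and 0.0623 CPM in parent (3 counts over each group, counting error only). BCL2A1 had 1 count in KD replicate 1, HRK 2 counts in each of 2 parent libraries, and BCL2L15 2 counts in 1 parent library. These 5 genes were not tested.

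Upstream of the family, genes of the death receptor pathway, in which ligands of the TNF family activate caspase 8, were counted as a list of 13. Of the 11 tested, 4 fell and 0 rose, 36.4% called beside 21.5% of all tested genes, and the median was -0.18 on the log2 scale. The TRAIL receptors TNFRSF10A and TNFRSF10B averaged 22.7 ± 1.35 and 146 ± 12.8 CPM in KD, against 35.5 ± 0.671 and 225 ± 20.8 CPM in parent. These were falls of 1.56-fold and 1.55-fold (edgeR adjusted p = 0.001 and 0.00386). CFLAR, which blocks caspase 8 at the receptor, was 1.31-fold lower at 48.5 ± 0.254 CPM in KD against 63.6 ± 3.44 CPM in parent (edgeR adjusted p = 0.00973). This call failed without KD replicate 1 (adjusted p = 0.0512) or KD replicate 2 (0.0508), all alternatives spanning 0.00128 to 0.0512. The decoy receptor TNFRSF10C, named after its values were seen, averaged 1.39 ± 0.613 CPM in KD against 3.64 ± 0.50 CPM in parent (edgeR adjusted p = 0.0194). It missed the threshold without KD replicate 2 (adjusted p = 0.0785) or parent replicate 2 (0.0551), all alternatives spanning 0.0157 to 0.0785. Without KD replicate 2 the list had 2 lower genes, and it had 1 higher gene without parent replicate 1 and with the replicate number as a block.

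Downstream of the family, 1 of 11 genes of the mitochondrial apoptosis machinery fell and 0 rose, with a median of -0.09, beside 21.5% of all tested genes called. It was APAF1, the scaffold that cytochrome c turns into the apoptosome, at 31.1 ± 0.649 CPM in KD against 40.0 ± 0.268 CPM in parent, 1.29-fold lower (edgeR adjusted p = 0.00611). The call failed without KD replicate 2 (adjusted p = 0.0577, all alternatives spanning 0.00593 to 0.0577), and with the replicate number as a block 2 genes of the list were lower. Of 9 genes for apoptotic caspases and their nuclease, 0 passed in edgeR, DESeq2 or limma voom, with a median of 0.07, and 1 had an unadjusted edgeR p under 0.05. It was CASP2, at 82.3 ± 1.51 CPM in KD against 68.3 ± 5.69 CPM in parent (edgeR adjusted p = 0.0582). CASP2 passed without parent replicate 3 (adjusted p = 0.0440) and with the replicate number as a block (0.0200), all alternatives spanning 0.0200 to 0.198.

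Of the inhibitor of apoptosis proteins, some of which restrain caspases, 6 of 7 were tested, with a median of -0.02. Among them 1 fell and 1 rose, 33.3% beside 21.5% of all tested genes. BIRC3 (cIAP2), a target of NF-kB, fell, with 432 and 435 counts in KD against 2522, 2274 and 2590 in parent. The groups were widely apart, at 28.6 ± 0.970 CPM in KD and 154 ± 8.31 CPM in parent, a 5.38-fold fall (log2 -2.43 ± 0.0715, edgeR adjusted p = 1.17e-05). BIRC5 (survivin) rose 1.18-fold, at 161 ± 6.85 CPM in KD against 136 ± 6.99 CPM in parent (edgeR adjusted p = 0.0323). Its call was lost on leaving out any of the 5 libraries (adjusted p = 0.0592 to 0.201) and without the low-count filter (0.10), all alternatives spanning 0.00934 to 0.201.

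**Figure D4:**
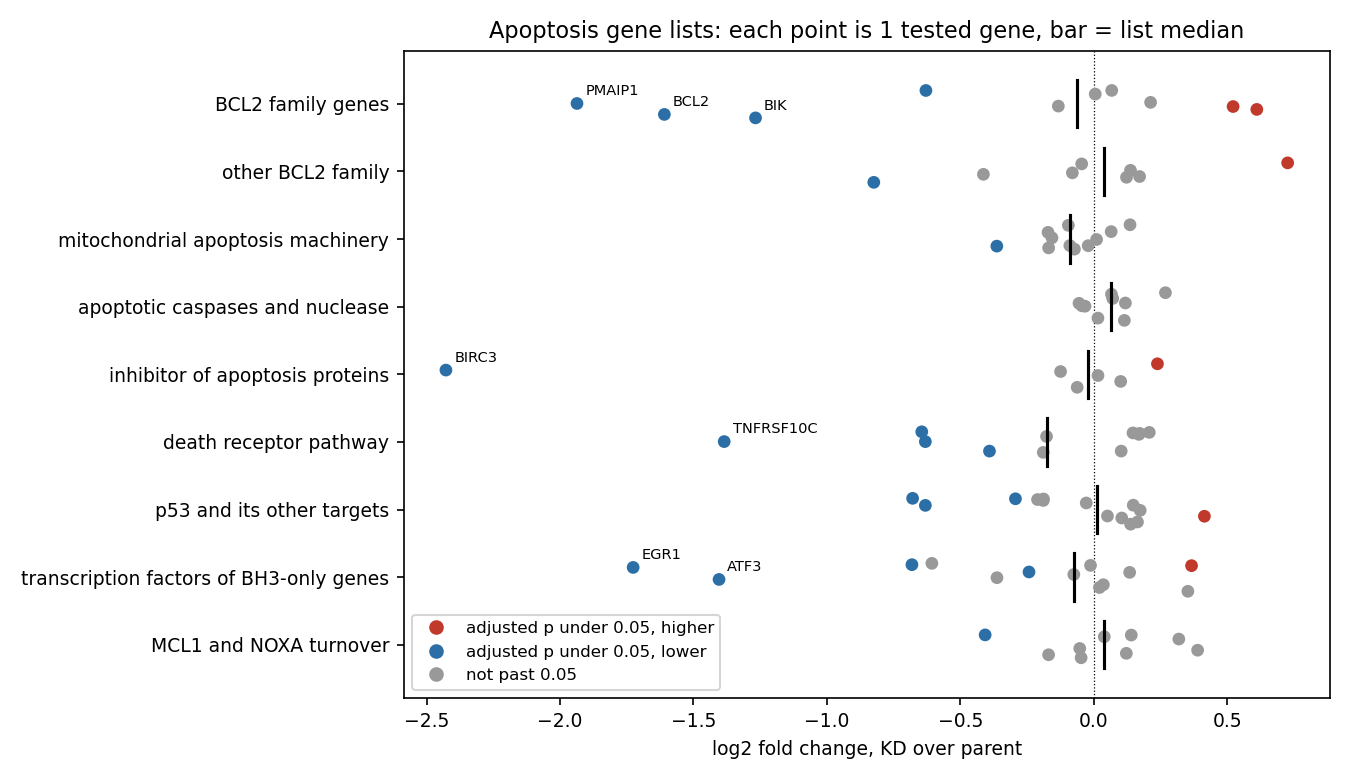
Log2 fold change of each tested gene, KD over parent, for the BCL2 family genes and 8 lists around them, with the bar at each list's median and colour for the call at an adjusted p of 0.05. Medians lie between -0.18 and 0.07, and the largest falls are those of BIRC3 (-2.43), PMAIP1 (-1.94), EGR1 (-1.73) and BCL2 (-1.61).

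The genes that regulate BH3-only transcription changed in both directions. p53 is mutant in MDA-MB-231. Of 14 genes counted as p53 and its other targets, 1 rose and 3 fell, 28.6% beside 21.5% of all tested genes. Their median was 0.01, and 5 were lower without parent replicate 1. The cell cycle inhibitor CDKN1A (p21) averaged 66.0 ± 0.977 CPM in KD and 106 ± 1.84 CPM in parent, a 1.60-fold fall (edgeR adjusted p = 0.000316). TNFRSF10B, given above, also belongs to this list. MDM4, a p53 inhibitor named after its values were seen, was 1.23-fold lower, at 38.4 ± 0.510 CPM in KD against 47.1 ± 3.38 CPM in parent (edgeR adjusted p = 0.0392). It lost its call in 5 of 11 alternatives, without KD replicate 1 (adjusted p = 0.164), KD replicate 2 (0.133) or parent replicate 2 (0.0941), with no filter (0.0504) and in DESeq2 (0.0710), all alternatives spanning 0.0233 to 0.164. ZMAT3, an RNA-binding p53 target, rose 1.33-fold, at 40.0 ± 0.683 CPM in KD against 30 ± 2.03 CPM in parent (edgeR adjusted p = 0.00903). It missed the threshold without KD replicate 1 (adjusted p = 0.0509) or KD replicate 2 (0.0671), all alternatives spanning 0.00436 to 0.0671.

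Of 13 transcription factors known to act on BH3-only genes, 1 rose and 4 fell, with a median of -0.07. The share called was 38.5%, beside 21.5% of all tested genes. MYC averaged 71.5 ± 4.39 CPM in KD and 115 ± 7.71 CPM in parent, a 1.60-fold fall (edgeR adjusted p = 0.00137). HIF1A, the oxygen-regulated subunit of HIF, averaged 768 ± 39.7 CPM in KD and 595 ± 13.1 CPM in parent, a 1.29-fold rise (edgeR adjusted p = 0.00366). The immediate early factor EGR1 averaged 3.41 ± 1.02 CPM in KD and 11.3 ± 3.69 CPM in parent, a 3.31-fold fall (edgeR adjusted p = 0.0102). EGR1 missed the threshold without KD replicate 2 (adjusted p = 0.0653, all alternatives spanning 5.13e-05 to 0.0653). The others that fell, named after their values were seen, were ATF3, at 1.80 ± 0.908 CPM in KD and 4.75 ± 0.388 CPM in parent, and JUN, at 132 ± 1.86 CPM in KD against 156 ± 5.04 CPM in parent (edgeR adjusted p = 0.0187 and 0.0150). ATF3 missed the threshold without KD replicate 2 (adjusted p = 0.0506) or parent replicate 2 (0.0663), all alternatives spanning 0.00782 to 0.0663. JUN missed it without KD replicate 1 (adjusted p = 0.116) or KD replicate 2 (0.0860), all alternatives spanning 0.00405 to 0.116. Without KD replicate 2, 1 factor of the list was lower.

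Of 9 tested genes that govern the turnover of the MCL1 and NOXA proteins, 1 fell and 0 rose, with a median of 0.04. The share called was 11.1%, beside 21.5% of all tested genes. Without parent replicate 1, 2 were lower, and 1 was higher without parent replicate 3 and with the replicate number as a block. The gene that fell was HUWE1 (MULE), a ubiquitin ligase for MCL1, at 976 ± 15.1 CPM in KD against 1294 ± 94.8 CPM in parent, 1.33-fold lower (edgeR adjusted p = 0.00774). Over the 8 lists together, 18 of 79 tested genes passed, 22.8%, beside 21.5% of all tested genes, with 4 higher and 14 lower. That share is near the background. The higher genes numbered 1 without KD replicate 1, 2 without KD replicate 2 or parent replicate 2, and 7 with the replicate number as a block, and the lower genes 6 without KD replicate 2.

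**Figure D5:**
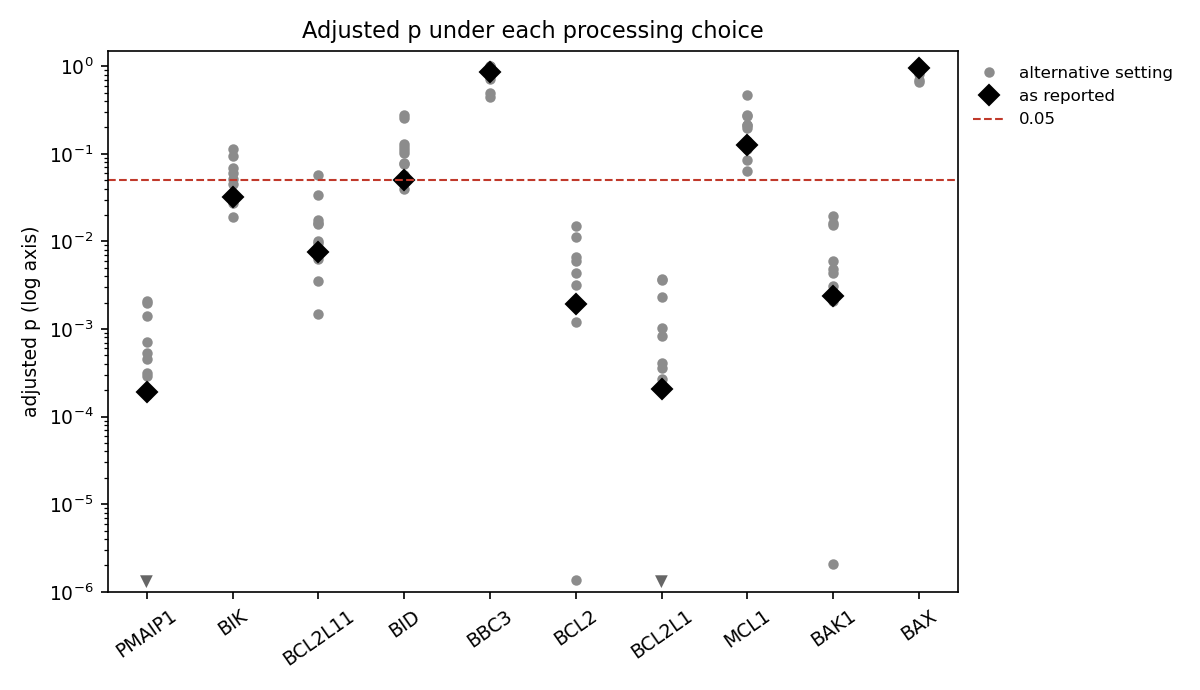
Adjusted p of each of the 10 genes on a log axis, with the value as reported (diamond), the values under the alternative settings (circles) and a dashed line at 0.05. Triangles at the lower edge stand for values under the axis limit. PMAIP1, BCL2, BCL2L1 and BAK1 stay under the line in every setting shown, and BIK, BCL2L11 and BID have values on both sides of it.

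Over 11 alternatives each, PMAIP1 kept an adjusted p of at most 0.00211, BCL2 of at most 0.0149 and BCL2L1 of at most 0.00374, and over 12 BAK1 of at most 0.0193. Their log2 fold changes ranged from -2.08 to -1.81 for PMAIP1, -1.85 to -1.41 for BCL2, -0.64 to -0.61 for BCL2L1 and 0.47 to 0.56 for BAK1. The authors' deposited table has the columns of DESeq2, and its log2 fold changes for the 10 genes are those of DESeq2 here, so it is not separate evidence. In it, 5 of the 10 genes have an adjusted p under 0.05, beside 13.6% of the 19816 genes with an adjusted p. They are PMAIP1, BCL2, BCL2L1, BCL2L11 and BAK1.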

How the data were processed

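The authors deposited a gene table of expected counts in whole numbers, not normalised. Per the submitters' processing notes, STAR, DESeq2 and hg19 were used, without versions; how reads were counted, on which annotation and with what strandedness, is not given in the sources used here. Their deposited comparison table holds, per the file headers, a mean signal of normalised counts, a log2 fold change, a Wald score, and p-values with adjusted p-values. The deposited transcript counts were not used, since no table pairs their identifiers with genes.

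Groups and replicate numbers came from the sample titles. Totals were 14601078 to 18049386 counts, and 22725 to 23623 genes had a count in a library. Pairs of libraries within a group differed by more than sampling noise (chi-square per degree of freedom at least 3.80). filterByExpr (minimum count 10, minimum total 15) left 16198 of 57773 genes. After TMM scaling, edgeR 4.0.16 in R 4.3.3 tested KD over parent (quasi-likelihood F) on group alone, with 3 residual degrees of freedom and Benjamini-Hochberg adjustment over all tested genes, threshold 0.05. The standard error is the size of the log2 fold change over the root of F.

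On simulated counts for this comparison, 200 of 16058 genes were changed, drawn without the genes of lowest count. Of the changes, 60% of 1.5-fold, 84% of 2-fold and 98% of 4-fold ones were recovered, and 7.10% of calls were unchanged genes. In the data 21.5% of tested genes were called, a far larger share than was changed, so these rates may not hold there. Alternatives were DESeq2 size factors, library totals, no filter, DESeq2 1.42.0, limma 3.58.1 voom, each library left out, and replicate number as a block. The family members and the 8 lists (88 distinct genes) were chosen with earlier results of these data known. Named were APEX1, the family and, in each other list, up to 3 called genes with the smallest adjusted p, or else the smallest. Promoter sequences are RefSeq's (GRCh38.p14), matched by symbol.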

Additional observations from a re-analysis of the deposited data

How the results depend on the processing

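Over all genes, 982 were higher in DESeq2, and leaving out a library gave 553 to 1413 higher and 1270 to 1970 lower genes, against 1482 and 2003 as reported. Without KD replicate 1, KD replicate 2 or parent replicate 2 there were 553, 755 and 709 higher and 1270, 1321 and 1320 lower genes. For the 10 family genes, leaving out a library gave 1 to 2 higher genes, and 3 to 4 lower ones. For the 8 lists it gave 1 to 5 higher and 6 to 17 lower genes, against 4 and 14. Leaving out a KD library assumes that the lone library varies like the parent ones. On leaving out a library, the log2 fold change was 0.48 to 0.73 for BCL2L11, -1.86 to -0.84 for BIK, and the difference in the log2 ratio of BAX to BCL2L1 was 0.59 to 0.68. BIK was at -1.28 both with no filter and in DESeq2, not past the threshold, and BID at 0.23 with library totals, past it. The cause was not tested. Values near 0 changed sign without a call. BBC3 ranged from -0.16 to 0.26 and BAX from -0.049 to 0.055 on leaving out a library, and BAX was -0.0071 with no filter and -0.0040 in DESeq2. BCL2L2 ranged from -0.096 to 0.021, and was 0.032 with its read-through row added, an alternative chosen after seeing the data, as were the sums with pseudogene rows. None of the called family genes reversed under these settings. Other scalings moved the median log2 fold change of all genes by 0.019 (library totals) and -0.0049 (DESeq2 size factors).

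The replicate numbers are not stated to mark shared cultures, and the correlation of deviations from the group means was 0.139 for replicate 1 and 0.0056 for replicate 2 (across 16198 genes, which are not replicates), with only 2 pairs. With replicate number as a block, 2 family genes were higher and 4 lower, as without it, while 7 genes of the 8 lists were higher and 18 lower. BAX was then -0.0050 and BCL2L2 0.021. The block changed no other call on the named genes than those given for BNIP3L and CASP2. Depth limits BIK, with 14 to 54 counts in a library, and BCL2, with 44 to 205. In the lists it likewise limits TNFRSF10C, with 15 to 66 counts, ATF3, with 18 to 82, and EGR1, with 42 to 242.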
